A study of Mus musculus with 10 samples.

Results

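The genes described here store, import and export iron and control those steps: the ferritin subunits Fth1 and Ftl1, the iron exporter Slc40a1 (ferroportin), the transferrin receptor Tfrc, the iron importer Slc11a2 (DMT1), and the iron regulatory proteins Aco1 (IRP1) and Ireb2 (IRP2). They were chosen by these known roles after the RNAseq, RF and TE values of Fth1 with and without KCl in these cultures had been seen, so the KCl values below describe them and are not independent tests. All transcripts annotated to the 7 genes were looked up among the 22534 transcripts with counts. Of the 7 genes, 5 had a transcript among them, with 6 transcripts in all. No transcript annotated to Ftl1 or Slc40a1 was found, and both genes were not analysed here.

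The libraries came from mixed neuron and glia cultures of FVB mouse cortex, prepared at birth (P0) and grown for 7 days. KCl at a final 55 mM for 3 h depolarized cultures 4 and 5, cultures 1, 2 and 3 were left untreated, and all 5 received cycloheximide for 7 min before lysis, which stalls ribosomes on the mRNA. Each culture gave an RNAseq library, which measures transcript abundance, and a ribosome footprinting (RF) library, which counts the mRNA fragments protected by ribosomes. RNAseq libraries held between 3056286 and 3629959 reads and RF libraries between 1463654 and 7719915, with the lowest RF depths in untreated culture 3 and KCl culture 4. Replicates are separate cultures, and whether they came from separate litters is not given in the sources used here. The paper states that 1 further KCl replicate was left out because its library was far smaller.

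Cells hold spare iron inside ferritin, a shell of heavy (Fth1) and light (Ftl1) subunits, and take iron up through the transferrin receptor and DMT1. When iron is scarce, the iron regulatory proteins bind a hairpin in certain mRNAs, the iron responsive element. Bound in the 5′UTR, as in ferritin and ferroportin mRNA, they keep ribosomes off the coding sequence, and bound in the 3′UTR, as in transferrin receptor mRNA, they protect the mRNA from decay. The element consists of a loop of the letters CAGTGN on a short stem, with an unpaired C below its upper part.

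The elements are printed here because their place in the mRNA separates the ferritin kind of control from the transferrin receptor kind. Each sequence is the mRNA strand from 5′ to 3′ in DNA letters, taken from the GENCODE transcripts of GRCm38, and the capitals mark the loop.
Fth1, 5′UTR: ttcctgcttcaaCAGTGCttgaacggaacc
Ftl1, 5′UTR: gtcttgcttcaaCAGTGTttgaacggaaca
Slc40a1, 5′UTR: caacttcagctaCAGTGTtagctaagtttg
Epas1, 5′UTR: tacaatcctcggCAGTGTcctgagactgta
Tfrc, first match in the 3′UTR: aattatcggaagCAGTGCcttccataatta
Tfrc, last match in the 3′UTR: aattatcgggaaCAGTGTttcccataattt
Slc11a2, 3′UTR: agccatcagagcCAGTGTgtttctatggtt

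The Fth1 element lies on the plus strand at chr19:9982732-9982761, within the 224 nt 5′UTR of its 929 nt transcript of 4 exons (ENSMUST00000025563, chr19:9982646-9985098). It equals the Ftl1 element (chr7:45459778-45459807, minus strand) at 26 of 30 positions and the Slc40a1 element (chr1:45925464-45925493, minus strand) at 13. The search found 4 elements in the 2458 nt 3′UTR of the full-length Tfrc transcript, from chr16:32631219-32631248 to chr16:32631710-32631739 on the plus strand. That full-length transcript was not among those with counts. The Tfrc transcript that was counted (ENSMUST00000120680, chr16:32608983-32623741, 13 exons) has a 1548 nt coding sequence, lacks these elements and shares coding sequence with the full-length transcript.

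Slc11a2 was counted as 2 transcripts that end in different 3′UTRs, only 1 of which carries the element (chr15:100395152-100395181, minus strand, ENSMUST00000138843, 16 exons). The other (ENSMUST00000023774) has 17 exons. Aco1 (ENSMUST00000102973, chr4:40143081-40198338, plus strand, 21 exons) and Ireb2 (ENSMUST00000034843, chr9:54863789-54912530, plus strand, 22 exons) were counted as 1 transcript each. The search asked for the loop, the C bulge, at least 4 of 5 pairs in the upper stem and at least 3 of 5 in the lower stem, with G-U pairs allowed, on the mRNA strand alone. By this rule 43 of 20580 listed transcripts with a 5′UTR of sufficient length (0.209%) and 263 of 21769 3′UTRs (1.21%) held a match. The Slc11a2 and Epas1 (chr17:86753768-86753797, plus strand) sequences do not meet the stem rule. They come from a search by loop and bulge that was added after the data were seen. Of its matches, those in the CDS, Slc11a2 matches with fewer than 4 upper pairs and Epas1 matches outside the 5′UTR were not kept. A match is a stretch of letters and was not tested for binding.

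All 6 transcripts passed the filter on low values, which 7258 of the 22534 transcripts passed. It asked for at least 10 reads per kilobase and 1000000 library reads (RPKM) in both assays of a culture, for 2 cultures or more. Tfrc lay just inside it, with a second-highest joint RPKM of 10.8, and it passed through untreated cultures 1 and 2 only. Ireb2 followed at 13.1. Epas1, which is no member, lay just outside at 7.30.

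In untreated cultures Fth1 combined very high abundance with the lowest translation efficiency (TE) of all measured transcripts. TE is the RF RPKM of the coding sequence (CDS) over the RNAseq RPKM of the same culture. RNAseq RPKM of Fth1 was 1637, 1996 and 2108 in untreated cultures 1, 2 and 3, where the median measured transcript had 21.5, and Fth1 ranked 9 of 7258. Its TE was 0.0343, 0.0318 and 0.0201, against a median of 1.69, and its mean was the lowest of the 7258. With RNAseq reads on the CDS alone in place of the whole transcript, its mean TE was 0.0659 ± 0.0195 (SD, n = 3) and again the lowest, here of 7182 transcripts, whose median was 2.13.

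The low TE of Fth1 rests in part on where its reads fell. Its 3′UTR had 8.29 ± 0.293 (SD, n = 3) times as many RNAseq reads per nt as its CDS in untreated cultures, against a median of 1.44, and ranked 375 of 7118 from the highest. Of the 520 stretches of 30 nt in its CDS, 122 (23.5%) also occur in the annotated transcripts Fth-ps2, Fth-ps3 and Gm6977. Degenerate sequences had been taken out of the authors' alignment target, and the effect on Fth1 reads was not tested. The same count for the Ftl1 coding sequence gave 95.6%, and for Slc40a1, Tfrc, Slc11a2, Aco1, Ireb2 and Epas1 it gave 0.

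The other members lay far below Fth1 in abundance and close together. Mean untreated RNAseq RPKM was 15.9 ± 1.11 for Aco1, 15.1 ± 1.5 and 14.9 ± 2.64 for the Slc11a2 transcripts with and without the element, 11.8 ± 2.69 for Ireb2 and 10.7 ± 1.87 for Tfrc (SD, n = 3). Neighbours in this order did not differ beyond their spread, apart from Fth1. RF RPKM gave another order, with Tfrc first at 99.8 ± 6.10, then Fth1 at 54.0 ± 10.7 and Aco1 at 49.5 ± 2.14, which overlapped. Ireb2 followed at 38.6 ± 1.93, below both, and then the Slc11a2 transcripts at 28.6 ± 1.84 and 28.1 ± 1.28, which share nearly all their footprints.

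Tfrc stood at the opposite end of TE from Fth1, with 9.55 ± 2.12 (SD, n = 3), rank 49 of 7258 from the highest. That rank depends on the RNAseq reads used. With those on the CDS alone, Tfrc had 8.01 ± 1.68 (SD, n = 3), rank 441 of 7182 from the highest. Ireb2 (3.44 ± 1.07) and Aco1 (3.13 ± 0.263) lay above the median, within each other's spread. The Slc11a2 transcripts lay near it, at 1.97 ± 0.401 without the element and 1.88 ± 0.245 with it, both from shared footprints. With RNAseq reads on the CDS alone they lay above the median of 2.13. They had 5.18 ± 0.194 without the element and 4.98 ± 0.988 with it (SD, n = 3). Their ranks were 1034 and 1095 of 7182 from the highest. These values rest on 26 to 37 RNAseq reads on the CDS per library.

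**Figure D1:**
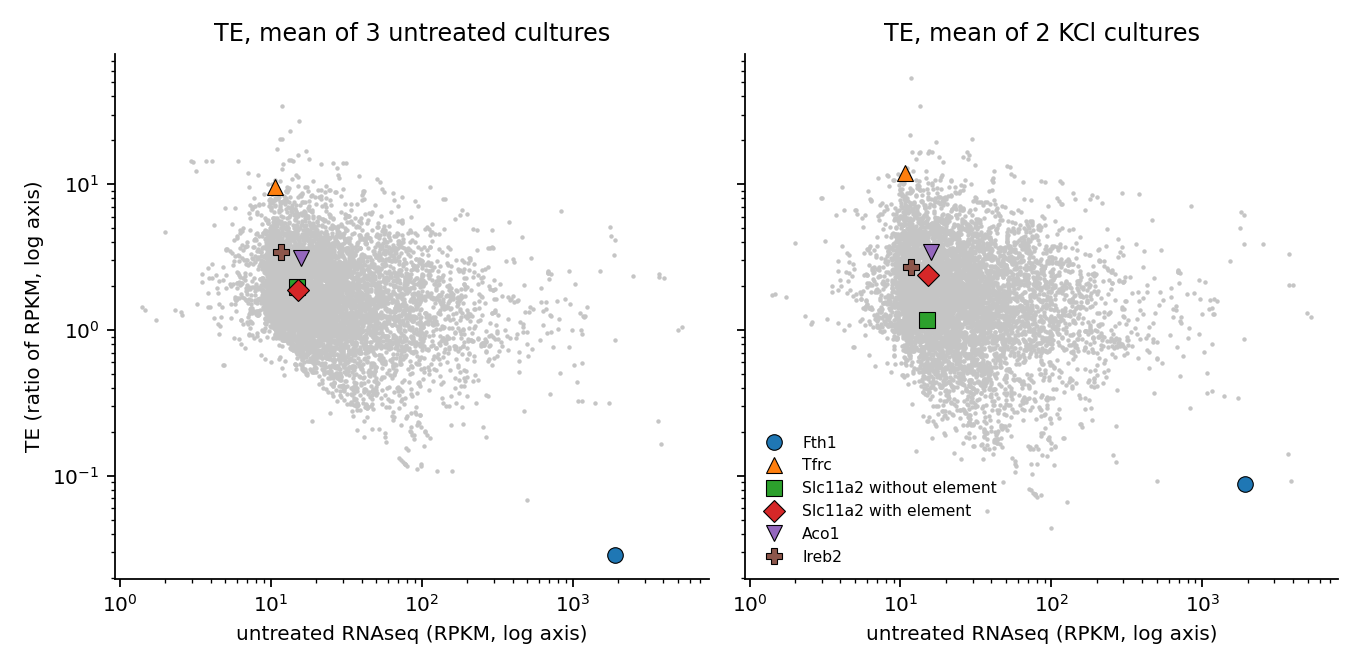
TE (RF over RNAseq RPKM, log axis) against mean untreated RNAseq RPKM (log axis) for the 7258 measured transcripts (grey) and the 6 members (symbols), with the mean TE of the 3 untreated cultures on the left and of the 2 KCl cultures on the right. Fth1 lies alone at high abundance and lowest TE in untreated cultures, and at rank 12 from the lowest in KCl cultures.

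With KCl, footprints on the Fth1 CDS rose while Fth1 mRNA did not. RF RPKM was 56.2, 63.4 and 42.3 untreated and 149.5 and 150.0 with KCl. Both KCl values lay above all untreated values, and the lowest of these, culture 3, rested on 34 CDS reads against 228 and 238 in the others. RNAseq RPKM was 1714 and 1677 with KCl, inside the untreated range. TE was 0.0872 and 0.0895 with KCl, above all untreated values, which moved Fth1 from rank 1 to rank 12 from the lowest. With RNAseq reads on the CDS alone, its mean TE with KCl was 0.190 ± 0.00924 (SD, n = 2), rank 51 of 7182 from the lowest.

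In fits across all 7258 transcripts, the log2 fold change of Fth1 was −0.09 (SE 0.13) in RNAseq, 1.51 (SE 0.15) in RF and 1.58 (SE 0.19) in TE, a 2.84-fold higher RF and a 3.00-fold higher TE. RF and TE passed an adjusted p of 0.05 and RNAseq did not. Fth1 TE passed in 13 of 13 alternatives, among them leaving out each culture, and the RF change passed in 11 of 11. Among the transcripts called in TE, 7 had a larger rise.

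The count of called members is given beside the share of all transcripts called, and nothing is read from it, because the choice of members used this contrast. In RNAseq 1 of the 6 was called higher and 1, Tfrc, lower, where 17.9% of all transcripts were higher and 15.1% lower. RF likewise had 1 higher and 1 lower, against 20.9% and 20.1%. In TE 1 was higher, against 1.53%, and 0 lower, against 4.26%. By edgeR 1 member was lower in TE at an unadjusted p under 0.05, and by DESeq2 0 were lower at an adjusted p under 0.05. The median log2 fold change over all transcripts was 0.00 in RNAseq, −0.01 in RF and 0.01 in TE.

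**Figure D2:**
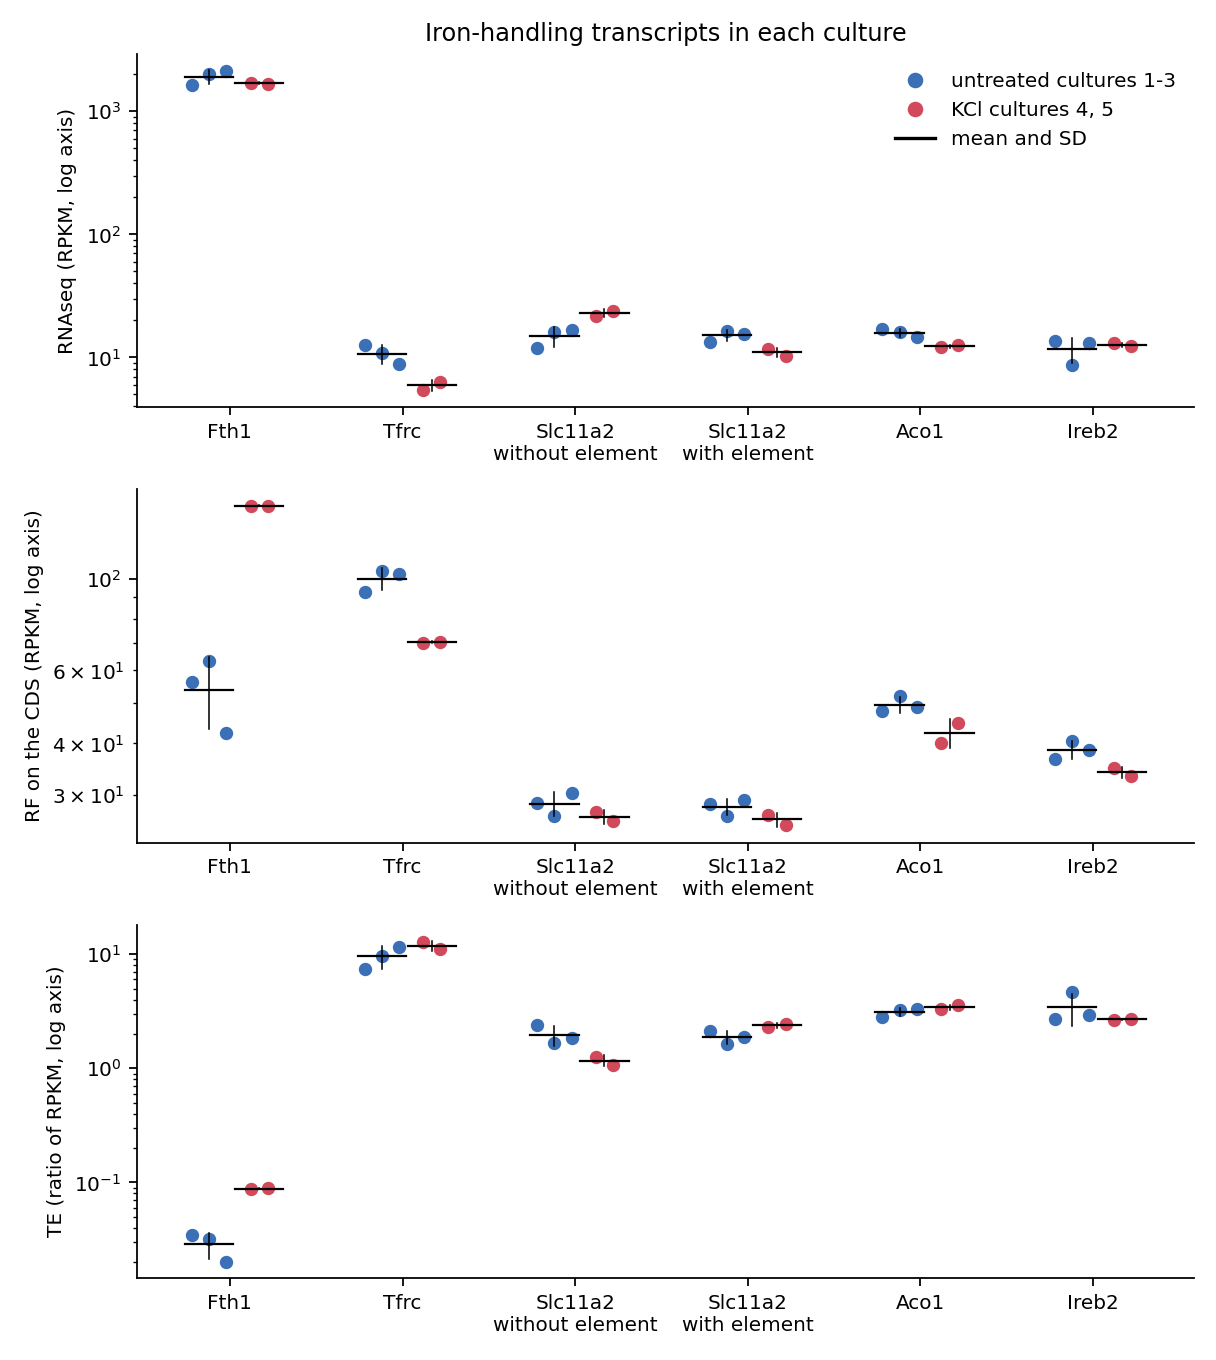
RNAseq RPKM, RF RPKM on the CDS and TE (all log axes) of the 6 transcripts in untreated cultures 1 to 3 (blue) and KCl cultures 4 and 5 (red), with group means and SD as black lines. The KCl values of Fth1 sit above all untreated values in RF and TE and inside their range in RNAseq, and those of Tfrc sit below in RNAseq and RF.

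Footprints on the 5′UTR of Fth1, where the element lies, overlapped between the groups, whereas those on the CDS did not. RF reads on the 5′UTR numbered 134, 166 and 104 untreated and 58 and 116 with KCl. Per 100 nt and 1000000 RF reads, this was 7.75, 11.3 and 31.7 untreated and 16.1 and 16.6 with KCl, so the groups overlapped. On the same scale the CDS had 5.62, 6.34 and 4.23 untreated and 15.0 in each KCl culture.

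The ratio of 5′UTR to CDS density was 1.38, 1.78 and 7.50 untreated and 1.08 and 1.11 with KCl, lower than in any untreated culture. In each culture it exceeded that of at least 80.7% of the 6453 transcripts compared, whose medians ranged from 0.277 to 0.440. Culture 3, where it was highest, also had the highest share of RF reads on 5′UTRs over all transcripts, 8.56% against 6.04% to 7.54% in the other cultures, and its part in the value was not tested. With 5′UTR and CDS footprints counted together the TE change of Fth1 was 1.08 on the log2 scale, still past an adjusted p of 0.05. The 3′UTR of Fth1 had between 0 and 2 RF reads per library. RNAseq reads on the 5′UTR were 706, 783 and 706 untreated and 515 and 683 with KCl. On the CDS they were 1240, 1542 and 1617 untreated and 1450 and 1523 with KCl, and on the 3′UTR 3011, 3660 and 3662 untreated and 3190 and 3448 with KCl. As raw counts, CDS and 3′UTR reads overlapped between the groups, and those on the 5′UTR were lower in both KCl cultures.

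**Figure D3:**
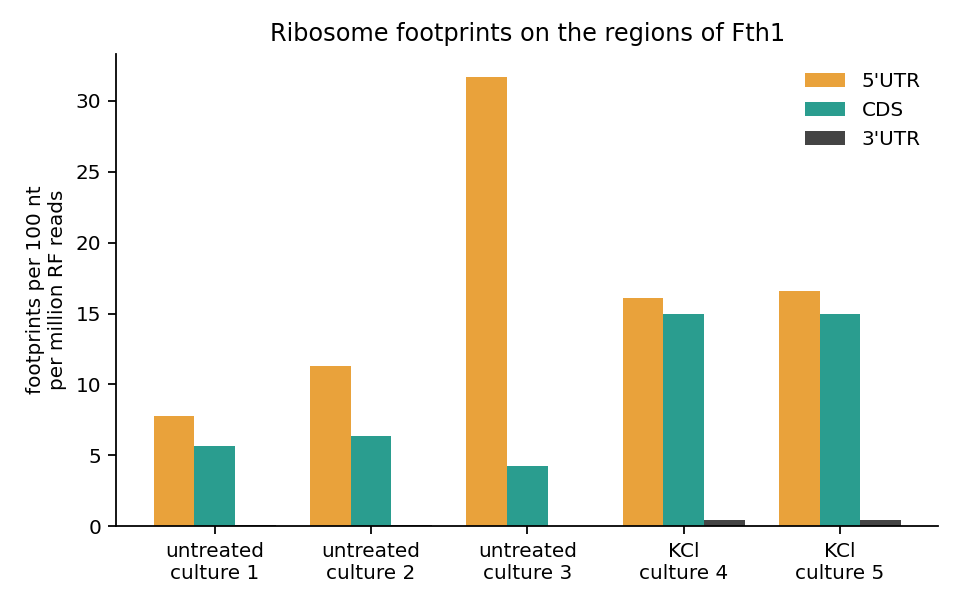
Footprints per 100 nt and 1000000 RF reads on the 5′UTR, CDS and 3′UTR of Fth1 in each culture. The CDS rises from between 4.23 and 6.34 untreated to 15.0 in both KCl cultures, while the 5′UTR overlaps between the groups and is highest in untreated culture 3.

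Transferrin receptor footprints were lower with KCl, and TE overlapped. Counts per 1000000 reads on the measured transcripts, normalized by TMM (CPM), were 29.6, 25.4 and 20.5 for Tfrc RNAseq in untreated cultures and 13.6 and 15.8 in KCl cultures. RF CPM were 192, 215 and 217 untreated and 155 and 158 with KCl. The groups did not overlap in either assay. TE was 7.40, 9.62 and 11.6 untreated and 12.8 and 11.1 with KCl, with the lower KCl value inside the untreated range.

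The log2 fold change of Tfrc was −0.77 (SE 0.28) in RNAseq, −0.40 (SE 0.11) in RF and 0.37 (SE 0.28) in TE. RF passed the threshold. RNAseq passed too, but Tfrc had entered the fit only through the untreated cultures in which its RNAseq was high, so that nothing is read from this call. It was lost with no filter beyond 1 read (−0.71), with filterByExpr (−0.71), with DESeq2 (−0.78) and with reads on the CDS alone (−0.71). The RNAseq change rested on between 33 and 76 reads per library, and the call was also lost without untreated culture 1 (−0.64), without KCl culture 4 (−0.68) and without KCl culture 5 (−0.89). The RF change passed in 10 of 11 alternatives and was lost without KCl culture 5 (−0.42). The counted transcript has a 3′UTR of its own of 235 nt, on which no read fell in any of the 10 libraries, so the reads on its CDS cannot be assigned to it rather than to full-length Tfrc mRNA.

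The Slc11a2 transcripts moved in opposite directions in RNAseq. These encode DMT1 proteins that differ at the C-terminal end, and their shared CDS gave nearly the same footprint counts, for example 378 and 371 in untreated culture 1. Footprints therefore cannot be assigned to either transcript, whereas RNAseq reads on their separate 3′UTRs can. The 3′UTR without the element (1186 nt) had 72, 113 and 111 reads in untreated cultures and 144 and 174 in KCl cultures. The 3′UTR with the element (2650 nt) had 153, 185 and 161 reads untreated and 124 and 108 with KCl. The former was higher in both KCl cultures than in any untreated culture, and the latter was lower.

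The form without the element took 32.0% (exact 95% interval 26.0 to 38.5), 37.9% (32.4 to 43.7) and 40.8% (34.9 to 46.9) of the reads on both 3′UTRs in untreated cultures, and 53.7% (47.6 to 59.8) and 61.7% (55.8 to 67.4) in KCl cultures. The intervals cover counting error only, and those of the KCl cultures lay above all untreated ones. Per nt of 3′UTR its mean share was 56.5% ± 4.80 (SD, n = 3) untreated and 75.2% ± 4.30 (SD, n = 2) with KCl. The corresponding ratio of the form with the element to the form without it was 0.778 ± 0.156 and 0.332 ± 0.0761.

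On reads over the whole transcript, the log2 fold change in RNAseq was 0.70 (SE 0.18) for Slc11a2 without the element, which passed the threshold, and −0.38 (SE 0.17) with the element, which did not. The latter passed without untreated culture 1 (−0.45) and with library totals in place of TMM (−0.46). On the 3′UTRs alone, a choice made after the data were seen, the changes were 0.59 (SE 0.21) and −0.61 (SE 0.20), and both were among the 24.6% of transcripts called on that scale. On the CDS alone the form with the element had 0.28 (SE 0.33), the opposite sign, from reads that both forms share. RF CPM overlapped, with 66.7 and 64.0 CPM in KCl cultures inside the untreated range of 60.7 to 71.2 CPM for the form without the element. Its TE change of −0.73 (SE 0.25) and the 0.38 (SE 0.25) of the form with the element have these shared footprints as numerator, and neither passed, though the former did without untreated culture 2 (−0.87).

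**Figure D4:**
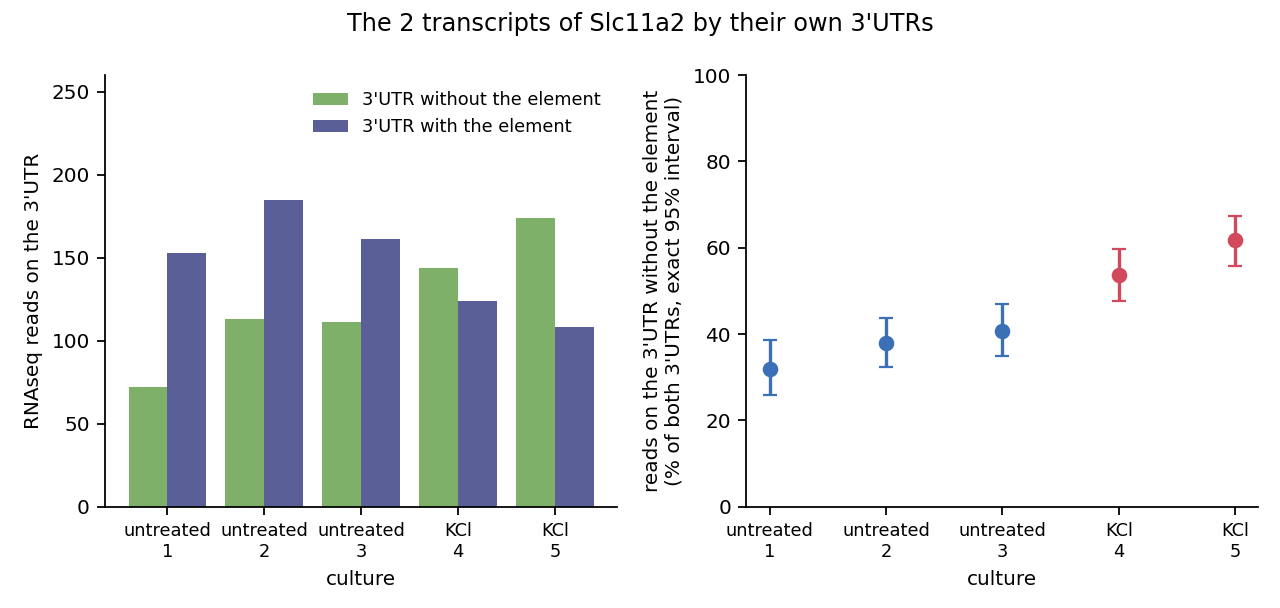
RNAseq reads on the 3′UTR of each Slc11a2 transcript in each culture (left, bars from 0) and the share of those reads on the 3′UTR without the element (right, points with exact 95% binomial intervals). The share lies between 32.0% and 40.8% in untreated cultures and at 53.7% and 61.7% in KCl cultures.

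The mRNAs of the iron regulatory proteins passed the threshold in no assay and in no alternative. Aco1, which encodes the iron-sulfur enzyme that becomes IRP1 when it loses its cluster, had RNAseq CPM of 82.1, 77.7 and 70.4 untreated and 61.7 and 64.2 with KCl. Both KCl values lay below all untreated ones. The log2 fold change was −0.29 (SE 0.17) and did not pass the threshold. Its RF CPM of 153 and 174 with KCl overlapped the untreated 171, 184 and 179. Its TE was 2.83, 3.23 and 3.33 untreated and 3.31 and 3.57 with KCl, also overlapping, with a log2 fold change of 0.17 (SE 0.22). Ireb2, whose product IRP2 is degraded when iron is plentiful, had RNAseq CPM of 99.6, 63.2 and 94.1 untreated and 100.3 and 94.6 with KCl, which overlapped. Its RF CPM were 142, 156 and 153 untreated and 144 and 139.6 with KCl, TE was 2.70, 4.67 and 2.95 untreated and 2.67 and 2.71 with KCl, and its log2 fold changes were 0.19 (SE 0.17) in RNAseq, −0.08 (SE 0.12) in RF and −0.29 (SE 0.22) in TE. The overlap of RF depends on the scaling. In RPKM, which uses library totals without TMM, Aco1 had 47.8, 51.9 and 48.9 untreated and 40.1 and 44.9 with KCl, and Ireb2 had 36.7, 40.6 and 38.5 untreated and 34.8 and 33.4 with KCl, so that the KCl values of both lay below all untreated ones. With library totals neither passed the threshold.

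**Figure D5:**
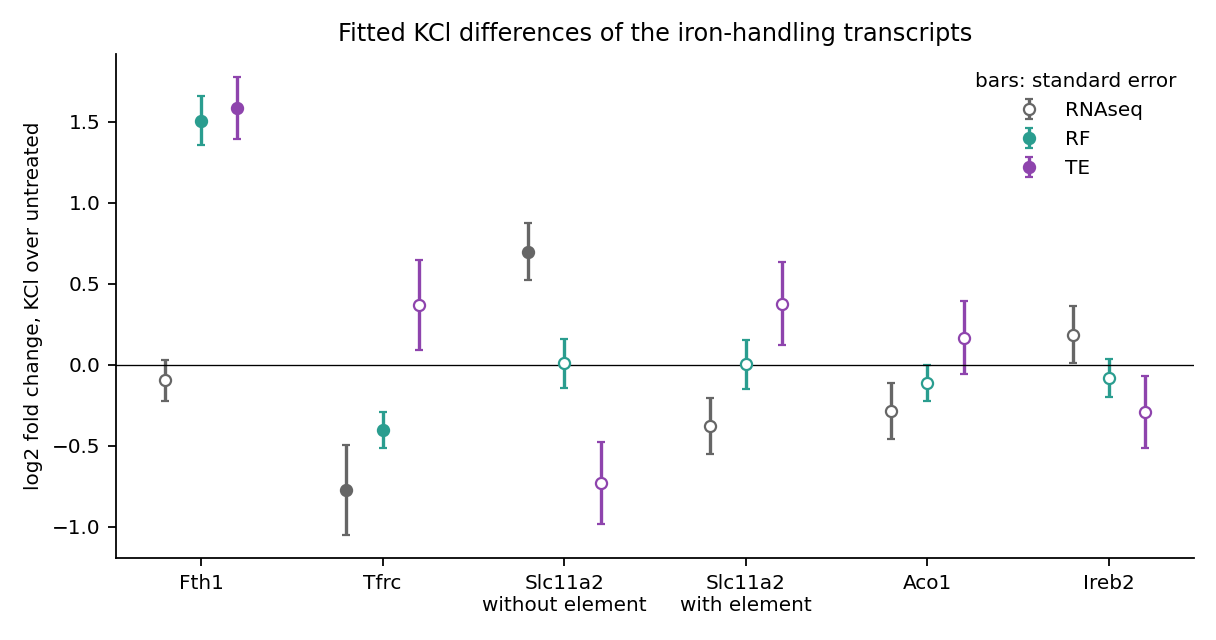
Log2 fold change (KCl over untreated) of RNAseq, RF and TE for each transcript, with standard errors as bars, from fits over 7258 transcripts. Filled points passed an adjusted p of 0.05 and open points did not. Fth1 stands out in RF and TE (1.51 and 1.58), and the Slc11a2 transcripts lie on opposite sides of 0 in RNAseq.

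Set side by side, Fth1, with the element in its 5′UTR, passed the threshold in RF and TE and not in RNAseq, whereas Tfrc and the Slc11a2 transcripts, from genes known for 3′UTR elements, did not pass in TE. Fth1 is the only 5′UTR gene of the 7 with counts, and Tfrc was counted by a transcript without the elements, so this contrast rests on few transcripts and was not tested. Other genes known for a 5′UTR element were looked up. Alas2, which starts haem synthesis in red cells, had 0 RNAseq reads. Epas1 (HIF-2α), a transcription factor of the hypoxia response, had reads on its CDS in every library.

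Epas1 moved in the same direction as Fth1. Its CDS footprints numbered 341, 315 and 65 untreated and 120 and 230 with KCl. Scaled to 1000000 reads on all CDSs, this was 47.6, 51.5 and 49.1 untreated and 80.7 and 80.2 with KCl. RNAseq reads, scaled to 1000000 reads on all regions of all transcripts, were 50.9, 37.2 and 40.2 untreated and 34.6 and 32.8 with KCl. The ratio of the former to the latter, a TE without lengths, was 0.936, 1.39 and 1.22 untreated and 2.33 and 2.45 with KCl. KCl values were above all untreated ones in RF and in the ratio, and below them in RNAseq.

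Because Epas1 did not pass the RPKM filter, it was tested in fits without that filter, over every transcript with a read. In edgeR its RF log2 fold change was 0.86 (SE 0.15, adjusted p = 8.96e-08) and its TE change 1.07 (SE 0.26, adjusted p = 0.00535). In these fits 13.4% of transcripts were called higher in RF and 0.504% in TE. The RNAseq change was −0.21 (SE 0.20, adjusted p = 0.544), where 19.0% were called. Over 6 alternatives the RF change lay between 0.82 and 0.92 (adjusted p from 2.39e-09 to 0.000973). The TE change lay between 0.90 and 1.22 (adjusted p from 0.000784 to 0.318) and was lost without KCl culture 4 (1.10, adjusted p = 0.135) and without KCl culture 5 (1.04, adjusted p = 0.318).

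The element search allowed the same values to be given for other 5′UTRs. The measured transcripts included 12 with a match, Fth1 among them. In TE 2 of the 12 were called higher, where 1.53% of all transcripts were, and 0 lower, where 4.26% were. At an unadjusted p under 0.05 the edgeR count lower was also 0, and DESeq2 called 1 higher, Fth1, and 0 lower. The second by edgeR was Tial1, an RNA-binding protein named here after its values were seen, with changes of 0.76 (SE 0.25, adjusted p = 0.0421) in TE, 1.04 (SE 0.16, adjusted p = 7.71e-06) in RF and 0.31 (SE 0.17, adjusted p = 0.169) in RNAseq. In RF 4 of the 12, Fth1 and Tial1 among them, were called higher and 1 lower, against 20.9% and 20.1% of all transcripts. Without Fth1, whose KCl values had been seen beforehand, 1 of the other 11 was called higher in TE by edgeR and 0 lower. Their median TE change was 0.04, from −0.41 to 0.76. Fth1 was the only one with all 5 upper pairs. Of 113 measured transcripts of 75 genes with a match in the 3′UTR, 4 were called higher and 5 lower in TE, against 1.53% and 4.26% of all transcripts, and their median change was 0.03. In RNAseq 29 of the 113 were called higher and 21 lower, against 17.9% and 15.1%, with a median of −0.06.

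Among 44 further genes of iron handling, 32 had a transcript with counts and 14 were measured. In RNAseq 1 of the 14 was called higher and 3 lower, where 17.9% and 15.1% of all transcripts were, and in RF 3 were higher and 3 lower, where 20.9% and 20.1% were. With 14 genes these counts lie near those shares, and the genes below are given as single genes. In TE 0 passed by edgeR or DESeq2, and by edgeR 1 was higher and 1 lower at an unadjusted p under 0.05. Their median log2 fold change was −0.16 in RNAseq, −0.20 in RF and 0.04 in TE.

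The largest of these changes were in the uptake gene Lcn2 and the haem gene Hmox1. Lcn2, a secreted protein that binds iron held by siderophores, had RNAseq CPM of 140.1, 154 and 120.3 untreated and 46.0 and 29.0 with KCl, and RF CPM of 164, 179 and 135 untreated and 29.3 and 36.7 with KCl. Its log2 fold change was −1.89 (SE 0.19, adjusted p = 1.74e-10) in RNAseq and −2.26 (SE 0.16, adjusted p = 5.52e-12) in RF. Hmox1, the haem oxygenase that frees iron from haem, had RNAseq CPM of 119.5, 128 and 127 untreated and 260.3 and 336 with KCl, and RF CPM of 279.7, 279 and 238 untreated and 516 and 507 with KCl. It rose by 1.26 (SE 0.14, adjusted p = 2.53e-09) in RNAseq and 0.93 (SE 0.09, adjusted p = 2.42e-09) in RF. For both genes the groups did not overlap in either assay.

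Smaller changes were found at other steps. RF rose for Slc39a14, an importer of iron not bound to transferrin, by 0.53 (SE 0.14, adjusted p = 0.00281), and for Pcbp1, a chaperone that delivers iron to ferritin, by 0.44 (SE 0.10, adjusted p = 0.000793). Their RNAseq changes of 0.25 (SE 0.16) and 0.13 (SE 0.14) did not pass. Lyrm4 and Ciapin1, which act in the assembly of iron-sulfur clusters, fell in RNAseq, with log2 changes of −0.80 (SE 0.20, adjusted p = 0.00190) and −0.89 (SE 0.21, adjusted p = 0.000763). Both RNAseq calls were lost with reads on the CDS alone (−0.62 and −0.38). RF changes were −0.68 (SE 0.27, adjusted p = 0.0439) and −0.40 (SE 0.15, adjusted p = 0.0319), calls that were lost in 6 and 7 of 11 alternatives. For Lyrm4 they were lost without untreated culture 2, KCl culture 4 or KCl culture 5 (−0.51, −0.62 and −0.78). For Ciapin1 they were lost without untreated culture 1 or 3 (−0.40 and −0.39) or KCl culture 4 or 5 (−0.43 and −0.36).

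Ferritin, Hmox1 and the genes Txnrd1 and Srxn1 are all known targets of the transcription factor NRF2. Of 6 NRF2 target genes outside iron handling 4 were measured, and they did not move one way. Txnrd1 rose by 0.52 (SE 0.13, adjusted p = 0.00225) in RNAseq and 0.35 (SE 0.09, adjusted p = 0.00184) in RF, and Srxn1 fell, with changes of −2.04 (SE 0.15, adjusted p = 1.09e-13) and −1.41 (SE 0.18, adjusted p = 3.40e-07). The RNAseq call of Txnrd1 was lost without KCl culture 4 (0.45) and with reads on the CDS alone (0.46), and its RF call without KCl culture 5 (0.33). Gclm and Gclc, which make glutathione, had RNAseq changes of 0.00 (SE 0.16) and −0.21 (SE 0.16).

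The 5 genes whose TE over the 5 cultures, on a log2 scale centred on the untreated mean, lay closest to that of Fth1 were Cisd1, Atp6v1g2, Tcta, Tsc22d1 and Ociad2. They were ranked among 7254 transcripts by the root mean square difference, which was 0.24, 0.32, 0.37, 0.37 and 0.38. Centred TE of Fth1 was 0.27, 0.17 and −0.44 in untreated cultures and 1.65 and 1.70 in KCl cultures. That of Cisd1, a protein of the outer mitochondrial membrane, was 0.54, −0.16 and −0.38 untreated and 1.45 and 1.42 with KCl. The RNAseq estimates of all 5 were below 0, from −0.32 (SE 0.16) for Tsc22d1 to −1.12 (SE 0.16) for Ociad2, beside −0.09 (SE 0.13) for Fth1. The likeness rests on few footprints for Tcta, Atp6v1g2 and Cisd1, with 5, 7 and 9 CDS reads in their shallowest libraries.

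Markers of several cell types were present. Over the measured markers, summed RNAseq CPM were 422 to 587 untreated and 508.6 to 509.7 with KCl for 3 of 5 neuronal markers, and 9672 to 10718 untreated and 8074 to 8356 with KCl for all 5 astrocyte markers. They were 138 to 156 untreated and 121 to 127 with KCl for 2 of 5 microglial markers, and 1572 to 1707 untreated and 1514 to 1555 with KCl for 4 of 5 oligodendrocyte lineage markers. Both endothelial markers were below the filter. No marker was at 0 in every RNAseq library. The RNAseq sums of astrocytes, microglia and the oligodendrocyte lineage were lower in both KCl cultures than in any untreated culture. Their RF sums were higher in both, with CPM of 16610 to 17114 untreated and 17899 to 18319 with KCl for astrocytes, 203 to 223 and 240.1 to 271 for microglia, and 1128 to 1297 and 1315 to 1450.3 for the oligodendrocyte lineage. The microglial sums rest on C1qa and C1qb. RF CPM of C1qb alone overlapped, at 71.2, 61.6 and 65.5 untreated and 55.1 and 78.4 with KCl. The microglial markers below the filter did not move one way in RF. In fits without it, their log2 fold changes were −0.80 (SE 0.18) for Cx3cr1, 0.48 (SE 0.15) for Csf1r and 0.11 (SE 0.34) for Aif1. Neuronal RF sums overlapped, at 285 to 455 untreated and 453 to 509 with KCl. Of the 5 astrocyte markers 2 passed as higher in TE by edgeR, where 1.53% of all transcripts did, and 0 as lower, where 4.26% did. The 2 were the water channel Aqp4 with 0.87 (SE 0.16, adjusted p = 1.59e-05) and the glutamate transporter Slc1a3 with 0.63 (SE 0.16, adjusted p = 0.00457). The part of these markers' cells in the values above was not tested. In these bulk cultures fewer cells of a type and less RNA per cell cannot be told apart.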

How the data were processed

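Per the submitters' processing notes and the paper's methods, the authors used Trimmomatic 0.32 for trimming and STAR 2.3.1z8 against rRNA, aligned with Bowtie2 2.2.2 to an mm10 transcriptome (Ensembl release 75) freed of degenerate sequences, retained reads with several alignments, and deposited unnormalized read counts per transcript region from bedtools 2.20.1. Footprints of 26 to 34 nt had been selected. Region letters were read as 5′UTR, CDS and 3′UTR from the correlation of read share with length share (Pearson's r over 12205 transcripts 0.41, 0.63 and 0.63), and 1 region stayed unnamed. Of 22534 transcripts 22172 matched GENCODE annotation of the same build. The paper's methods leave out positions at start and stop codons, which counts per region do not allow.

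RNAseq counts on all regions and RF counts on the CDS entered the robust quasi-likelihood test in edgeR 4.0.16 (R 4.3.3; TMM within assay) on 7258 transcripts, with Benjamini-Hochberg adjusted p-values. RPKM used all RNAseq or RF reads as totals, and CPM those on measured transcripts. The TE test was the assay by treatment term, with the culture as replicate block. The pairing comes from the labels and the shared lysate. Deviations from group means of same-numbered libraries correlated between −0.07 and 0.06. SE is the absolute log2 fold change over the square root of F, an approximation. An exact permutation test of 3 against 2 cannot go below p = 0.1 and was not used. The fits were tested on simulated data.

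Members, lists, named genes and tests were chosen with earlier results of these data known. Named were the members, pathway genes past the threshold by their transcript with the most RNAseq reads, and the 5 genes nearest to Fth1 in TE. Alternatives were DESeq2 1.42.0, library totals, other filters and regions, 1 transcript per gene, no block, a stricter element rule, and leaving out each culture. Summaries used Python 3.11.15 with numpy 2.4.6, pandas, scipy 1.17.1 and matplotlib.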

Additional observations from a re-analysis of the deposited data

Results flagged for a closer look

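For Slc11a2 without the element, RNAseq reads on the unnamed region, which entered no comparison of its own, numbered 33 and 38 in KCl cultures 4 and 5, above the 13, 17 and 11 of the untreated cultures. For the form with the element the same region had 9 and 17 reads with KCl and 13, 19 and 10 untreated. What this region is, is not given in the sources used here. No group had enough cultures for the check on samples far from the others.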

How the results depend on the processing

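Counts of called transcripts were 2393 in RNAseq, 2974 in RF and 420 in TE. Testing more or fewer transcripts moved them to 4166, 5412 and 422 with no filter beyond 1 read, to 4232, 5330 and 456 with filterByExpr, and to 1439, 1744 and 261 with 1 transcript per gene. RNAseq reads on the CDS alone gave 1528 in RNAseq and 265 in TE, and DESeq2 gave 174 in TE. Leaving out 1 culture gave 1634 to 2634 in RNAseq, 1698 to 3233 in RF and 70 to 546 in TE, lowest without KCl culture 4 in RNAseq and without KCl culture 5 in RF and TE. No replicate block gave 419 in TE and changed no call of a member. Library totals in place of TMM shifted the median log2 fold change by −0.08 in RNAseq and −0.10 in RF, and turned 1298 higher and 1095 lower in RNAseq into 1097 and 1483, and 1515 and 1459 in RF into 1186 and 1916.

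Over members and named pathway genes 329 values kept direction and side of the threshold, 27 lost and 4 gained significance, and 12 changed sign, of which none was called. On the CDS alone these were Fth1 (0.0309) and Slc11a2 with the element (0.28) in RNAseq, and the latter in TE (−0.312). The others were RF of Slc11a2, near 0 throughout: without and with the element −0.0886 and −0.0943 by library totals, −0.00767 and −0.0136 with 5′UTR reads, −0.0092 with it for 1 transcript per gene, and from −0.0418 to 0.0446 and from −0.0417 to 0.0377 on leaving out 1 culture, below 0 without untreated culture 2 or KCl culture 4. Slc11a2 without the element passed in TE without untreated culture 2 (−0.87) and lost its RNAseq call on the CDS alone (0.54). Requiring all 5 upper pairs left 4 matches in 5′UTRs and 31 in 3′UTRs. The causes were not tested. RF depth in untreated culture 3 and KCl culture 4 limits all RF and TE values.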
